A study of Rattus norvegicus with 34 samples.

Results

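Expression of miRNAs was compared between 4 exocrine glands of the rat (pancreas, salivary gland, prostate, and lacrimal gland) and 5 other organs with tubular segments (kidney, lung, bile duct, liver, and small intestine). These 9 libraries were assigned to their class by tissue label, out of the 17 card A libraries of the series, and the classes were set up with earlier results of these data known. All tissues came from untreated Sprague-Dawley rats 4 weeks old. Male and female animals were used, but the sex and the number of animals behind each library were not stated. Each tissue was measured in 1 library on the TaqMan rodent card A, whose wells each carry a PCR assay for one small RNA. Tissues were therefore the units of every comparison, and p-values measure the spread between different tissues of a class, not between repeated measurements of a tissue. RNA was extracted from whole organs, so fewer cells of a type and less RNA per cell cannot be told apart.

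Exocrine glands release their secretions through a branching tree of ducts that drains clusters of secretory cells. The pancreas delivers digestive enzymes, the salivary gland saliva, the lacrimal gland tears, and the prostate a part of the seminal fluid. The other organs are also lined by epithelium but filter, exchange gas, absorb, or conduct bile, and the liver consists mainly of hepatocytes around small bile ducts. miRNAs are short RNAs that guide a silencing complex to messenger RNAs, and many are restricted to a tissue or cell type. The question was which signals of card A separate the glands from the other organs with tubular segments. The values used here number the positions of the card without miRNA names, so results are given by position, no sequence is shown, and the labelled tissues could not be checked against marker miRNAs.

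Expression is given as the Cp value, the PCR cycle at which fluorescence crosses a threshold. A lower Cp corresponds to more template, and the value 50 stands for no amplification. Cp values above 35 were taken as not detected and were set to 35. Of the 384 positions, 4 repeated ones (11, 12, 35, and 36) were left out, and 380 remained. Of these, 182 ± 38.1 (SD, n = 4) were detected in the glands and 225 ± 29.5 (SD, n = 5) in the other organs (two-sided exact permutation test, p = 0.0794, adjusted p = 0.132 over 5 library measures). The smallest p that 4 against 5 libraries allow is 0.0159. Pancreas had the fewest with 125, followed by liver with 174, prostate with 193, lacrimal gland with 201, and salivary gland with 207. The difference in detected positions, -43.5, depended on single libraries and on the limit. It was -24.7 without pancreas (two-sided exact permutation test, p = 0.179) and -18.3 with a limit of 40 cycles (p = 0.365 by the same exact test). Without liver it was -56.25 (two-sided exact permutation test, p = 0.0286, the smallest that 4 against 4 libraries allow).

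Run length did not vary freely between the classes. All 4 glands and bile duct had Cp values above 43, with the highest between 44.3 and 44.9, while kidney, lung, liver, and small intestine ended between 41.0 and 42.0. These are called longer and shorter runs here, and why the last Cp differed is not given in the sources used here. Late amplification, with Cp over 35 and under 50, was seen at 65 to 79 positions in the glands and at 62 in bile duct, but at only 16 to 35 in the 4 organs of shorter runs. The class difference in late wells had the smallest p the design allows (two-sided exact permutation test, p = 0.0159, adjusted p = 0.0794), and bile duct lay next to the glands in it. Counted together, detected and late wells numbered 254 ± 33.9 (SD, n = 4) in the glands and 254 ± 29.4 (SD, n = 5) in the other organs (two-sided exact permutation test, p = 0.984). Bile duct is the only one of these organs with a longer run, so its place is given for the called positions and the further non-overlapping ones.

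**Figure D1:**
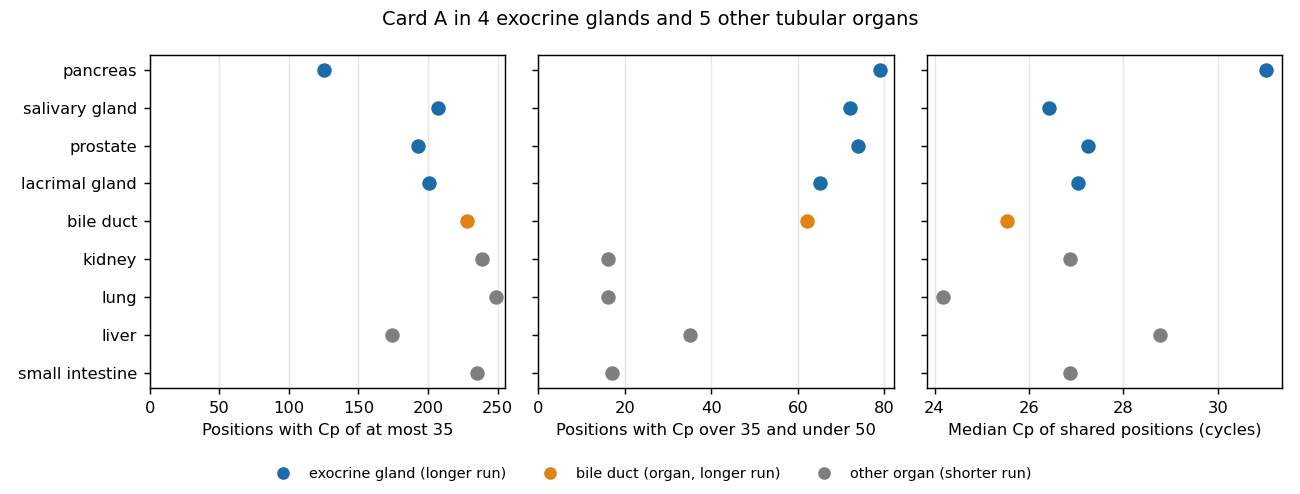
Number of card A positions detected at a Cp of at most 35 (left), number with late amplification at a Cp over 35 and under 50 (middle), and the median Cp in cycles of the positions shared by all 9 libraries (right). Each point is 1 library. Late wells number 62 to 79 in the 4 glands and bile duct and 16 to 35 in the other 4 organs, and pancreas has the latest median, 31.0 cycles.

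Each library was scaled by subtracting its median over the 88 positions detected in all 9. This median was 31.0 cycles in pancreas, 27.3 in prostate, 27.0 in lacrimal gland, and 26.4 in salivary gland. It was 28.8 in liver, 26.9 in kidney, 26.9 in small intestine, 25.5 in bile duct, and 24.2 in lung. The glands and the other organs overlapped (two-sided exact permutation test, p = 0.317). The 4 repeated positions, abundant in every library, came later on average in the glands, at 19.9 ± 1.57 (SD, n = 4) against 18.0 ± 1.06 (SD, n = 5) cycles, and again latest in pancreas with 22.2 (two-sided exact permutation test, p = 0.0476, adjusted p = 0.119). The classes overlapped here too, since liver, at 19.2, was later than salivary gland at 19.1 and prostate at 18.9. After scaling, an undetected well takes the value of the library's limit, from 3.98 cycles in pancreas to 10.8 in lung. An undetected well thus gives only a bound, and the bound is least strict in pancreas. A scaled Cp near 0 means expression at the median of the shared positions, and each cycle below it is close to a doubling of template where amplification is efficient.

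Of 229 positions detected in at least 4 of the 9 libraries, 8 differed between the classes (limma, Benjamini-Hochberg adjusted p under 0.05), which is 3.49% of the positions tested. Expression was higher in the glands at 6 of them (2.62% of those tested) and higher in the other organs at 2 (0.873%). The 6 positions higher in the glands were 174, 156, 125, 63, 163, and 92, and the 2 higher in the other organs were 62 and 66. Positions 156 and 125 passed the detection filter mainly through the glands, with only 1 organ detected at each. Their p-values rest largely on the library limits and do not measure a spread of expression. Over all 229 positions the median difference, glands minus organs, was 0.19 cycles, and 32 positions had an unadjusted p under 0.05. Single tissues moved the number of calls. It was 2 without salivary gland, 1 without prostate, 1 without lacrimal gland, 2 without kidney, 3 without lung, 3 without liver, and 5 without small intestine. It was 9 without pancreas and 10 without bile duct. Position 174 was called in each of these 9 fits.

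With run length as a further term in the limma model, the class difference rests on the glands against bile duct alone, and 0 of 229 positions (0%) were called. At an unadjusted p under 0.05 there were 9, of which 8 were higher in the glands. In this fit the whole set was shifted the same way, with a median difference of -0.57 cycles and 149 of the 229 differences negative. The term for run length, which rests on bile duct against the 4 organs of shorter runs, also gave 0 adjusted calls and 15 positions at an unadjusted p under 0.05. With 1 longer run among the organs, gland and run length cannot be told apart for most positions. The place of bile duct is given as a value only. It is 1 library of another tissue, so tissue and run length are mixed in it.

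**Figure D2:**
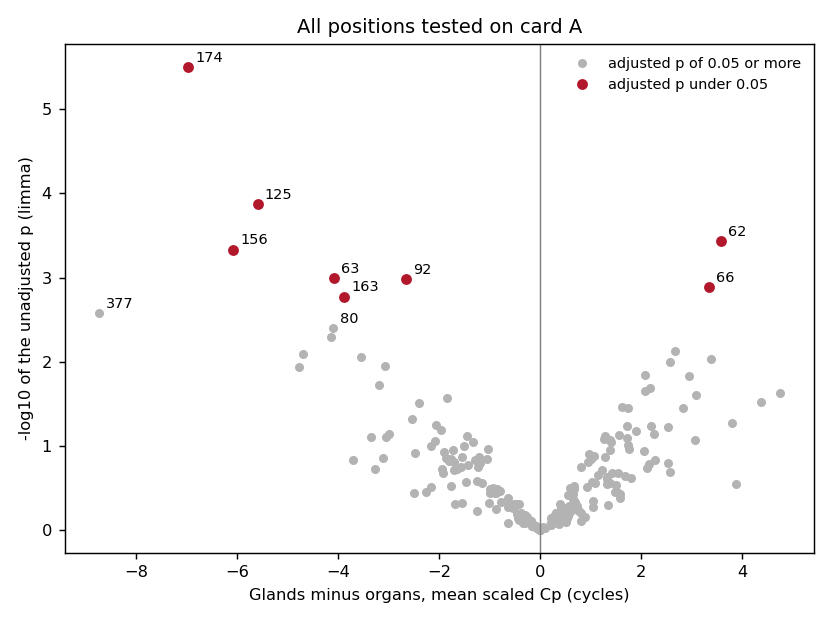
Difference of class means in scaled Cp (glands minus organs, cycles) against the -log10 of the unadjusted limma p for the 229 positions tested. Each point is a position, negative differences mean higher expression in the glands, and the 8 called positions are marked, with the 10 lowest p-values numbered. Position 174 has the lowest p and position 377 the largest difference, -8.73 cycles, without passing the adjusted threshold.

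Position 174 was the clearest gland signal. Its Cp was 30.9 in pancreas, 27.0 in salivary gland, 27.6 in prostate, and 26.4 in lacrimal gland. Its Cp was 41.0 in kidney and 41.0 in liver, both undetected, 34.4 in small intestine, 32.2 in lung, and 30.7 in bile duct. After scaling, the 4 glands lay within -0.59 and 0.57 cycles, so that pancreas, late in raw Cp, fell among the others. The 5 organs lay between 5.19 and 8.13 cycles, and the gap between the nearest tissues, salivary gland and bile duct, was 4.62 cycles. The difference of the class means was -6.96 cycles (SE 0.76, limma adjusted p = 0.00072), and it is a minimum because of the 2 undetected organs. Bile duct differed from the mean of the 4 organs of shorter runs by -2.27 cycles, toward the glands, and the glands lay -5.14 cycles from bile duct alone (SE 1.09, limma adjusted p = 0.238 with run length as a term).

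Positions 156 and 125 were detected mainly in the glands. At position 156 the scaled Cp was 0.54 in pancreas, 0.88 in lacrimal gland, 2.79 in prostate, and 5.57 in salivary gland, all detected. Among the organs it was detected only in lung, with a Cp of 34.8, close to the limit, while kidney, bile duct, liver, and small intestine had late wells with Cp from 37.0 to 40.9. The class difference of -6.07 cycles (SE 1.2, limma adjusted p = 0.0267) is thus a minimum. The spread among the organs that enters this test is largely that of the library limits, since 4 of the 5 organ values are limits, so its SE and p do not measure a spread of expression. The call was lost without prostate, lacrimal gland, kidney, or lung. Bile duct had a Cp of 40.2 and gives only a limit, so its place among the organs could not be measured.

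At position 125 expression was again gland-weighted, but pancreas did not share it. The scaled Cp was 1.14 in lacrimal gland, 1.96 in prostate, and 3.99 in salivary gland. Pancreas was undetected with a Cp of 38.1, and its scaled value of 3.98 is only its limit. Lung was the only organ with a detected value, 9.83 cycles after scaling, and bile duct had a late well with a Cp of 38.6. The class difference was -5.59 cycles (SE 0.94, limma adjusted p = 0.0155). Pancreas and 4 of the 5 organs enter at their limits, so both class means are bounds, and the SE and p rest largely on the spread of the library limits. The position passed the filter with exactly 4 detected libraries, 3 glands and lung, and bile duct gives only a limit.

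The other 3 positions higher in the glands were detected in both classes. At position 92, measured in all 9 libraries, the scaled Cp was -1.86 in pancreas, -1.74 in prostate, -1.39 in salivary gland, and -0.86 in lacrimal gland. In the organs it was 0.52 in bile duct, 0.83 in liver, 1.04 in small intestine, 1.76 in lung, and 1.84 in kidney. The classes did not overlap, the nearest tissues were 1.38 cycles apart, and the class difference was -2.66 cycles (SE 0.59, limma adjusted p = 0.0403). Bile duct was the organ closest to the glands. No undetected well enters this difference, and its call was kept only in the fits without pancreas and without bile duct among the 9 that left out a tissue.

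At position 63 the glands had scaled Cp values of -0.30 in salivary gland, 0.85 in pancreas, 1.89 in lacrimal gland, and 2.22 in prostate. The organs had 3.54 in small intestine, 3.87 in bile duct, 5.80 in lung, and 6.79 in kidney, and liver was undetected. The groups were 1.32 cycles apart and the class difference was -4.08 cycles (SE 0.90, limma adjusted p = 0.0403), a minimum because liver enters at its limit. Salivary gland was the highest and bile duct lay inside the range of the shorter runs. The call at position 63 was kept in 2 of the 9 fits, those without bile duct and without small intestine.

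Position 163 was weak or undetected in every library. Its Cp was 29.5 in prostate, 30.1 in salivary gland, 32.8 in lacrimal gland, and 34.6 in pancreas, and among the organs 33.5 in kidney, 33.6 in lung, and 33.7 in bile duct, with liver and small intestine undetected. In raw Cp pancreas and the organs thus overlapped, and the classes separated only after scaling, by 0.42 cycles. This gap lies between lacrimal gland, at 5.81, and the limit of the undetected liver, 6.23. Bile duct had a scaled Cp of 8.16, between kidney at 6.58 and lung at 9.39. The class difference was -3.89 cycles (SE 0.92, limma adjusted p = 0.0485), and the call was kept in only 1 of the 9 fits, that without pancreas. Liver and small intestine enter at their limits, so this difference is a minimum, and its SE and p rest partly on limits.

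Positions 62 and 66 were higher in the organs. Position 62 was detected everywhere. The scaled Cp was -2.25 in lung, -2.15 in kidney, -2.07 in bile duct, -1.89 in liver, and -0.40 in small intestine. In the glands it was 0.72 in pancreas, 1.47 in prostate, 2.48 in salivary gland, and 2.59 in lacrimal gland. Bile duct sat in the middle of the organs, and its difference from the shorter runs was -0.40 cycles. The class difference was 3.57 cycles (SE 0.68, limma adjusted p = 0.0267), and the glands lay 3.89 cycles from bile duct alone (SE 1.18, limma adjusted p = 0.413 with run length as a term). The call was kept without pancreas, bile duct, or small intestine and lost without each of the other 6 tissues.

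At position 66 the scaled Cp was 0.12 in kidney, 0.73 in lung, 1.17 in liver, 1.90 in small intestine, and 3.10 in bile duct. It was 4.12 in prostate, 5.38 in lacrimal gland, and 5.52 in salivary gland. Pancreas was undetected with a Cp of 36.8 and entered at its limit of 3.98, the lowest gland value. The differences of the glands from the organs and from bile duct given here are thus minimum values, and their SE and p include this limit. The class difference was 3.34 cycles (SE 0.76, limma adjusted p = 0.0424). Here bile duct lay 2.12 cycles above the mean of the shorter runs, outside their range and on the side of the glands, and the difference between the glands and bile duct was 1.65 cycles (SE 1.12, limma adjusted p = 0.83 with run length as a term). The call was kept in 2 of the 9 fits, those without pancreas and without bile duct.

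**Figure D3:**
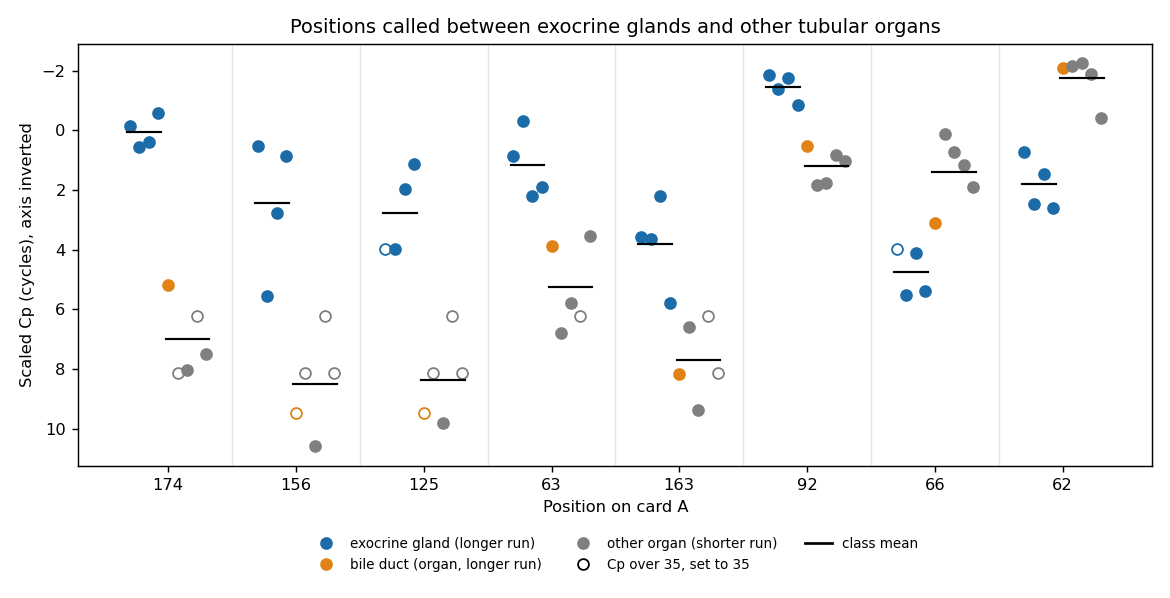
Scaled Cp (cycles, inverted so that higher expression is up) at the 8 called positions, ordered by the class difference. Each point is 1 library, open points are undetected wells set to a Cp of 35, and lines are class means. At position 174 the 4 glands lie between -0.59 and 0.57 and the organs between 5.19 and 8.13; 4 of the open points stand for organs at position 156 and 4 for organs at position 125.

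Without reference to the fit, every gland was detected and had a lower scaled Cp than every organ at 7 of the 380 positions (1.84%). Every organ was detected and had a lower scaled Cp than every gland at 6 (1.58%). These numbers depended on the scale and on the libraries included. Leaving out a library removes a condition from the rule, so the counts then tend to rise whichever tissue is left out. Without scaling they were 1 and 23, without pancreas 20 and 15, and without bile duct 9 and 15. The 13 positions included 7 of the 8 called ones. Position 125 was the exception, since pancreas was undetected there. The 2 further gland positions were 80 and 116. Position 116 was among the abundant ones, with scaled Cp values of -6.11 in lacrimal gland, -5.90 in prostate, -5.79 in salivary gland, and -4.27 in pancreas. The organs ranged from -3.89 in small intestine and -2.86 in lung to 2.19 in liver, so the gap was 0.38 cycles, and the difference of -4.14 cycles did not pass the threshold (SE 1.17, limma adjusted p = 0.106). Bile duct, at -2.01, lay within the range of the shorter runs.

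Position 80 had a similar order of tissues at lower levels. Its scaled Cp was -2.59 in prostate, -1.91 in lacrimal gland, -1.09 in salivary gland, and 0.10 in pancreas. It was 0.70 in small intestine, 1.55 in lung, 2.40 in bile duct, and 2.74 in kidney, and liver was undetected with a Cp of 37.0. Its difference of -4.09 cycles, a minimum because liver enters at its limit, was not called (SE 1.11, limma adjusted p = 0.0911). At both positions liver was the lowest of the organs and small intestine the nearest to the glands.

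The 4 further positions higher in every organ were 4, 16, 32, and 384, none of them called. Their class differences were 2.18 (SE 0.80), 2.07 (SE 0.70), 1.27 (SE 0.66), and 3.39 (SE 1.06) cycles, with limma adjusted p = 0.215, 0.168, 0.391, and 0.141. The gaps between the nearest tissues were small, from 0.20 cycles at position 32 to 0.70 at position 4. At position 4 salivary gland, lacrimal gland, and prostate lay close together at 0.90, 0.99, and 1.12 cycles, and pancreas stood apart at 3.65. Bile duct, at 0.20, lay just outside the shorter runs, which reached 0.13, on the side of the glands. At positions 16, 32, and 384 bile duct lay within the range of the shorter runs, at 0.83, -1.31, and 2.47 cycles. At position 384 pancreas and lacrimal gland showed no amplification, whereas all 5 organs were detected with Cp values from 23.9 in lung to 30.0 in liver. These 2 glands enter there at their limits.

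Presence and absence alone separated the classes little. No position was detected in all 4 glands and in none of the organs. The 3 positions 102, 118, and 277 were detected in all 5 organs and in no gland, out of 158 detected in all organs. Their Cp values in the organs ran from 28.4 in lung at position 277 up to the detection limit. Pancreas alone lacked many positions, since 47 were detected in the other 8 libraries and not in pancreas.

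Bile duct was then set against the ranges of the glands and of the 4 organs of shorter runs. The 4 glands lay above these 4 organs in expression at 9 of the 380 positions. Bile duct lay within or beyond the organs at 5 of them, between at 2, and with the glands at 2. The 5 include position 156, where bile duct was undetected, so that its place there compares limits and was not measured. The 4 glands lay below the 4 organs at 15 of the 380 positions, and here bile duct lay with the organs at 4, between at 2, and with the glands at 9. All 4 glands had to be detected in the first set and all 4 organs in the second. Undetected wells on the other side entered at their limits. By these counts, separation of the glands toward higher expression was shared by bile duct at 2 of 9 positions and separation toward lower expression at 9 of 15. The difference between these shares was not tested, and these positions were picked for their separation of the glands from the 4 organs.

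The 2 positions at which bile duct went with the glands toward higher expression were 377 and 241. Position 377 had the largest class difference of all, -8.73 cycles (SE 2.22, limma adjusted p = 0.0679). Its Cp was 21.5 in prostate, 22.8 in salivary gland, 23.0 in pancreas, and 27.8 in lacrimal gland, and it was 23.2 in bile duct. It was 31.9 in lung, 32.7 in kidney, 33.1 in small intestine, and 34.3 in liver. Bile duct was thus -8.65 cycles from the shorter runs, inside the range of the glands, and the glands differed from bile duct by only -1.81 cycles (SE 2.65). Heart, skeletal muscle, and spleen, also shorter runs, had Cp values of 34.1, 32.7, and 33.2.

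Position 241, singled out after its values were seen, followed run length in all 12 whole tissues. Its Cp was 27.5 in bile duct, 28.7 in lacrimal gland, 30.1 in salivary gland, 30.4 in prostate, and 31.7 in pancreas. No amplification was recorded in kidney, lung, liver, small intestine, heart, skeletal muscle, or spleen. Whether the run or the tissue gives this division cannot be told apart in these whole tissues. At the 9 positions where bile duct went with the glands toward lower expression (46, 49, 50, 53, 91, 225, 270, 365, and 366), the longer runs were later than the shorter ones by 1.24 to 3.82 cycles on average. Pancreas was undetected at positions 50, 53, 91, 270, 365, and 366 and entered at its limit of 3.98 cycles, so these averages are minimum values. At position 366 bile duct, at 4.04, went with the glands only against this limit, since prostate had 4.10.

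**Figure D4:**
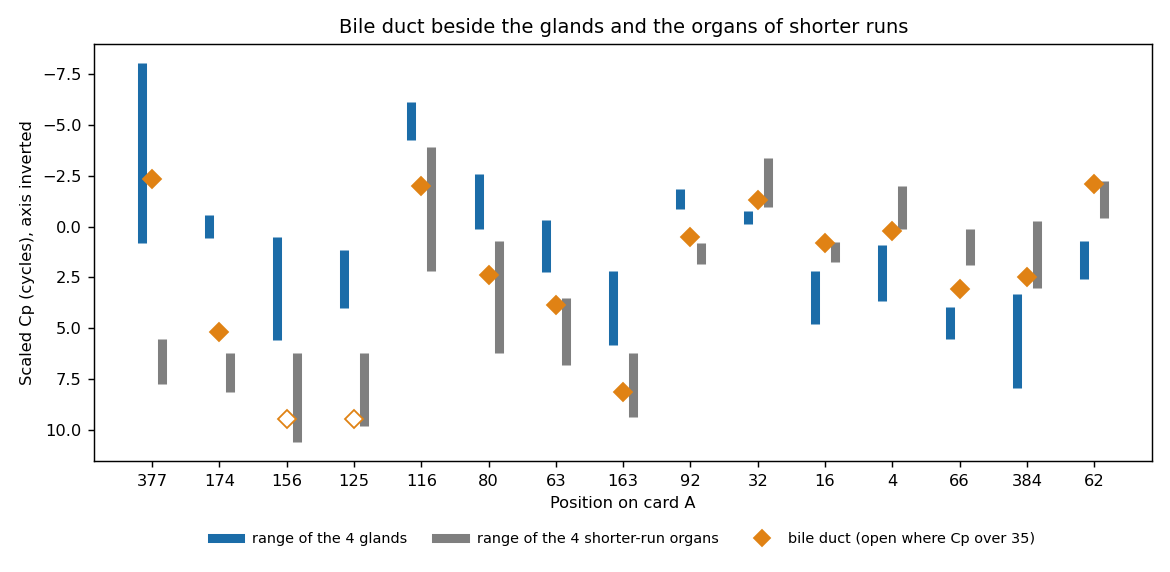
Range of scaled Cp (cycles, inverted) in the 4 glands and in the 4 organs of shorter runs, with bile duct as a diamond, at the positions that were called, did not overlap, or had one of the 10 lowest p-values. At position 62 bile duct, -2.07, sits inside the organs, at position 66, 3.10, it lies outside them toward the glands, and at position 377 it lies inside the range of the glands.

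Libraries outside the comparison were then examined at these positions. Heart, skeletal muscle, and spleen have no tubular epithelium as their main tissue and were all shorter runs. With all 12 tissues scaled together to 84 shared positions, each of these 3 lay beyond the glands on the side of the organs at 12 of the 13 non-overlapping positions. The glands are at one extreme at these positions by choice, so little can be read from this count. Over all 380 positions the 3 tissues lay above every gland in scaled Cp at 4.74% and below every gland at 8.16%. The exception was position 63, where skeletal muscle, at 0.67 cycles, lay inside the range of the glands. At position 174 skeletal muscle was the nearest of them, with a scaled Cp of 1.48 against at most 0.65 in the glands, and its raw Cp was 29.6. Position 125 was also detected in heart with a Cp of 29.6, equal to 2.92 cycles after scaling and inside the range of the glands. These comparisons use the same glands as above and add no replicate of them.

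Glands isolated by laser microdissection gave a second view from separate libraries, each preamplified for 12 cycles and scaled to the 5 microdissected libraries. At 5 of the 8 called positions (174, 163, 92, 62, and 66), bronchial gland and mammary gland both lay apart from intestinal villus and proximal tubule in the same direction as the whole glands from the whole organs, and at none in the opposite direction. Over the 229 tested positions these glands lay lower in scaled Cp than both other libraries at 16.6% and higher at 18.3%. At position 163 villus and proximal tubule were undetected, so the comparison was with limits. At position 174 the scaled Cp was 1.70 in bronchial gland and 1.55 in mammary gland, against 6.06 in intestinal villus, with proximal tubule and glomerulus undetected. At position 62 the glands were nearly level with villus, with -0.96 and -0.88 in the glands against -0.99 in villus and -2.0 in proximal tubule. Bronchial and mammary gland were also longer runs, with Cp values up to 44.7 and 45.0, while villus and proximal tubule were not, so the microdissected libraries divide by run length in the same way.

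Over the 13 non-overlapping positions, the microdissected glands lay apart in the same direction at 6 and in the opposite direction at 1, position 384. Position 156 did not follow the pattern, since it was detected in bronchial gland with a Cp of 24.7 and in proximal tubule and glomerulus with 19.0 and 19.1, and was undetected in mammary gland. At position 377 the microdissected glands had Cp values of 32.9 and 31.5 after preamplification, and villus had the lower Cp of 27.6. Position 241 was detected in bronchial gland (22.8), mammary gland (24.4), and glomerulus (22.2) and showed no amplification in villus or proximal tubule. Glomerulus was a shorter run, with a highest Cp of 41.0, so position 241 did not follow run length among the microdissected libraries.

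The glands were not a uniform class. Over the 88 shared positions the Spearman correlation of Cp was 0.898 between salivary gland and prostate, 0.895 between salivary and lacrimal gland, and 0.878 between prostate and lacrimal gland. Pancreas correlated with them at 0.390 to 0.465, below the 0.594 to 0.798 among the 5 organs. Correlations between a gland and an organ ranged from 0.334 to 0.775 (20 pairs), and bile duct had 0.425 to 0.775 with the glands and 0.594 to 0.789 with the other organs. Over all 380 positions, undetected wells included, the difference between the sets was not seen. The 3 glands other than pancreas had 0.794 to 0.849 among themselves, the organs 0.819 to 0.870, and salivary gland had its highest correlation, 0.857, with bile duct. These correlations run across positions of the same card, which are not independent. The median SD of a position was 1.13 cycles over the 4 glands, 0.69 over the 3 glands other than pancreas, and 0.97 over the 5 organs. Salivary gland, prostate, and lacrimal gland were thus closer to each other than the organs were at the shared positions but not over the whole card, and pancreas had the lowest correlations with the other glands on both.

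Positions led by a single gland were counted as those at least 3 cycles lower in scaled Cp than in each of the other 3 glands. Pancreas led 24, lacrimal gland 6, prostate 3, and salivary gland none. Without scaling these numbers were 13, 11, 9, and 15, so that they depend on the scale. They also depend on the limits, with 17, 6, 3, and 0 under a common floor after scaling. With a limit of 40 cycles they were 36, 15, 11, and 9. The scaled limit is 3.98 cycles in pancreas and 7.74 to 8.57 in the other glands. A position detected only in pancreas among the glands thus always counts as a lead. In the other direction, pancreas was at least 3 cycles later than every other gland at 8 positions, lacrimal gland at 5, salivary gland at 1, and prostate at none.

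The leads of pancreas were the largest. Position 312 had a Cp of 17.0 in pancreas and no amplification in the other 3 glands, a lead of at least 21.8 cycles. Bile duct was the only other of the 9 libraries in which position 312 was detected, with a Cp of 32.1. Position 134 (lead at least 13.3 cycles, Cp 25.5 in pancreas) and position 57 (lead at least 12.1 cycles, Cp 26.7) were undetected in the other glands. Both were shared with small intestine, where the Cp was 26.6 and 29.0, and with bile duct, where it was 30.3 and 34.8, and position 134 was also detected in lung. None of these 3 positions was thus confined to pancreas among the 9 libraries.

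Prostate led at positions 109, 326, and 27. Position 109 had a Cp of 26.1 in prostate and showed no amplification in the other glands (lead at least 5.10 cycles), but was also detected in kidney with a Cp of 28.5. Position 326 had a Cp of 26.9 in prostate and was detected in none of the other 8 libraries (lead at least 4.28 cycles). Position 27 was detected everywhere, with a lead of 3.09 cycles over the next gland, and liver was higher than prostate there after scaling, at -4.81 against -3.48 cycles.

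Lacrimal gland led at positions 382, 379, and 38. Position 382 had a Cp of 23.8 in lacrimal gland against 33.3 in prostate, 33.6 in salivary gland, and 36.3 in pancreas, a lead of at least 7.24 cycles. Bile duct had 29.6 at this position and the other organs 33.2 to 34.7. At position 379 the Cp was 25.0 in lacrimal gland and 33.3 in salivary gland, with prostate and pancreas undetected (lead at least 6.03 cycles), while lung, kidney, and small intestine had 27.9, 28.2, and 29.3. Position 38 had a Cp of 25.3 in lacrimal gland, 31.7 in salivary gland, and 32.6 in prostate, and was undetected in pancreas (lead at least 5.69 cycles), with 28.0 to 31.6 in the organs. At these 3 positions lacrimal gland was also higher than each of the 5 organs after scaling. Each of these leads rests on a single library per gland and has no replicate check.

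**Figure D5:**
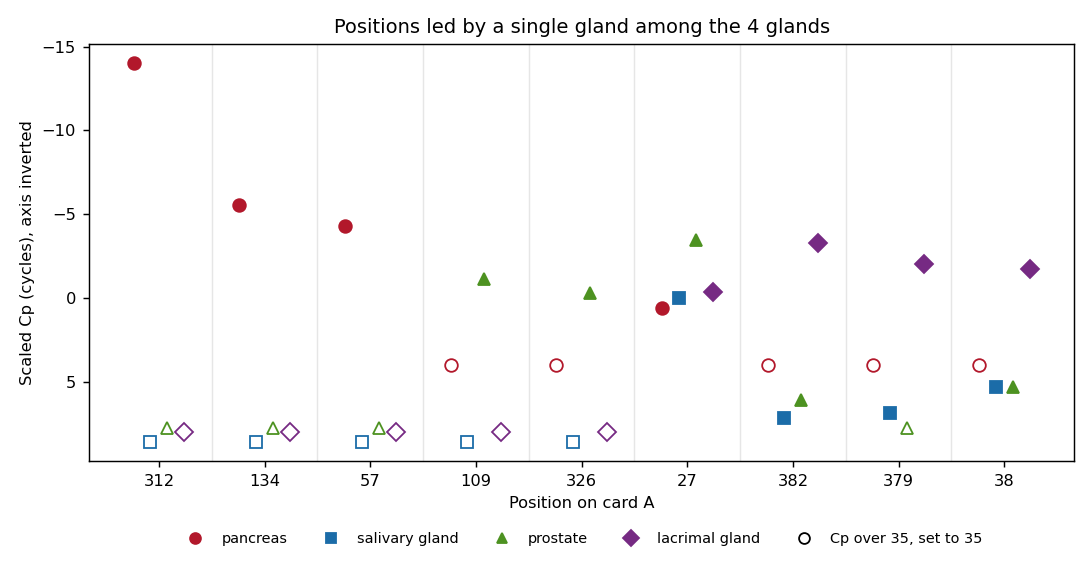
Scaled Cp (cycles, inverted) in the 4 glands at the positions with the largest leads of pancreas (312, 134, 57), prostate (109, 326, 27), and lacrimal gland (382, 379, 38). Open symbols are undetected wells set to a Cp of 35, so leads over them are minimum values, and the lead of pancreas at position 312 is at least 21.8 cycles.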

How the data were processed

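Total RNA was isolated from tissues with TRIzol and from microdissected samples with the mirVana PARIS kit, and the TaqMan rodent cards were run on an ABI Prism instrument. The authors deposited Cp values, read with SDS and RQ Manager software, without normalization. The design text names rodent cards and the sample protocols a human kit, and the rodent card was assumed. Only card A was used. Cp values over 35 were set to 35, 4 repeated positions were left out, and each library was scaled to its median over the positions detected in all libraries compared. Classes were compared with limma 3.58.1 (lmFit and eBayes, R 4.3.3) over positions detected in at least 4 of 9 libraries, with Benjamini-Hochberg adjustment over all positions tested, and the fit was tested on simulated data. Single library values were compared by exact permutation tests. Named positions were those called (up to 12 in each direction), those without overlap (up to 8 in each direction), the 10 lowest p-values, and up to 3 leads per gland. Positions named for detection in every organ and no gland, or for the place of bile duct, were chosen after their values were seen. Classes, positions left out, and rules were chosen with earlier results of these data known. Planned lists of miRNAs and cell type markers were not used, because positions carry no names here. Amplification efficiencies were not given, and precision is limited by 1 library per tissue. Python 3.11.15 and scipy 1.17.1 were also used.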

Additional observations from a re-analysis of the deposited data

Results flagged for a closer look

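Among 40 sets of values examined for a library far from the others of its class, 6 stood out. The sets share libraries, and most are positions picked for class separation or a low p, so no chance number is given. The number of detected positions stood out in pancreas, with 125 among the glands (gap of 0.8293 of the range), and in liver, with 174 among the other organs (0.72). The mean Cp of the repeated positions was 22.2 in pancreas (0.887 of the range among the glands). Position 4 was latest in pancreas, with a scaled Cp of 3.65 (0.921). Position 62 stood out in small intestine, with -0.40 among the organs (0.804). Position 377 stood out in bile duct, with -2.33 among the organs (0.778), the only organ with a longer run. The part of library depth, run length, or tissue in these values was not tested.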

How the results depend on the processing

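The number of called positions was 8. It was 4 when libraries were scaled by the repeated positions (all higher in the glands), 0 without scaling (limma, 43 at an unadjusted p under 0.05), 3 with a limit of 40, 3 without liver, 2 over only the positions detected in all 9 libraries, 3 without the filter on detection, and 0 with run length as a term. It was 6 with a limit of 32 or a common floor after scaling, 7 with a trended prior, and 11 without pancreas and bile duct, an alternative chosen after seeing the data. With each tissue left out it ran from 1 to 10. Of the 8, position 174 was called in 16 of 18 alternatives, 125 in 10 of 12, 156 in 10 of 17, and 62 in 8 of 19. Position 92 was called in 7 of 19, 63 in 6 of 18, 66 in 5 of 18, and 163 in 2 of 16. These totals differ because a position detected in too few libraries was not tested. Position 125 was tested in only 5 of the fits that left out a tissue. It could not be tested without salivary gland, prostate, lacrimal gland, or lung, the libraries that detected it. The fits of 125 and 156 rest largely on library limits. Without scaling the median difference of all positions moved from 0.19 to 1.68 cycles.

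Positions higher in every gland numbered 7, with 1 without scaling, 2 over positions detected in all 9, 30 without pancreas and bile duct, and from 7 to 20 with each tissue left out, the highest without pancreas. Positions higher in every organ numbered 6, with 23 without scaling, 3 with a limit of 32, 10 with a limit of 40, 15 without bile duct, 21 without pancreas and bile duct, and from 7 to 15 with each tissue left out. Both counts tend to rise when a tissue is left out, since the rule then has fewer conditions. The difference in detected positions, -43.5, ran from -56.25 (p = 0.0286 by the exact test, without liver) to -24.7 (without pancreas) with each tissue left out. The difference in scale was 1.49 cycles, 1.92 with the repeated positions (two-sided exact permutation test, p = 0.0476), and from 0.46 to 2.07 with each tissue left out. The causes were not tested. No paired analysis was possible because no replicate number links a gland to an organ.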

Other observations

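Position 156, one of the gland positions, was undetected in whole kidney with a Cp of 37.0, while proximal tubule and glomerulus, isolated from kidney by microdissection and preamplified for 12 cycles, had 19.0 and 19.1. At position 174 whole kidney (41.0) and proximal tubule (39.0) were both undetected. What sets the values of position 156 apart was not tested.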
